A study of Bos taurus with 16 samples.

Results

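The endometrium lines the uterus, and in cattle it feeds the early embryo through its secretions, called histotroph, well before the embryo attaches. After ovulation the corpus luteum forms and releases progesterone, the hormone that turns the lining from a growing into a secreting tissue. Genes that are switched on between the first week and the middle of the cycle and then held are therefore of interest for this secretory phase. In a pregnant animal the elongating conceptus later signals to the lining with interferon tau, which preserves the corpus luteum, whereas without that signal luteolysis ends the secretory phase.

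The group described here holds 153 of the 27607 genes in the count tables, chosen from the measured values of days 5, 10 and 14. A library's level was its CPM, the count of a gene scaled to 1000000 reads counted in genes, and a day's value was the median CPM of its 4 libraries plus 0.5. Members had day 10 and day 14 values each at least 2 times that of day 5, a day 14 value above 0.5 and under 2 times that of day 10, and a largest day median of at least 5 CPM. Every day 10 and day 14 library also lay above every day 5 library. The rise from day 5 and its persistence to day 14 are thus how the members were found and not results. They are described here, and no test of them is read as support. Day 18 entered the choice only through the level minimum.

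Biopsies came from synchronised Holstein virgin heifers, non-lactating and mated by timed artificial insemination with Holstein semen. The synchronisation, which all groups share, used a GnRH analog, an intravaginal progesterone device and doses of the prostaglandin analog cloprostenol. The groups are days 5, 10, 14 and 18 of what the labels call early pregnancy, counted from estrus, with 4 animals each drawn at random for their day, which gives 16 libraries of poly(A) RNA. Whether an embryo was recovered from a given animal is not in the labels, so day 18 animals are not known here to be pregnant. The tables name genes by Ensembl ID alone, and 0 of the 27607 IDs matched the reference gene table. For that reason no member is given a symbol, role or sequence, the marker genes of endometrial cell types could not be looked up, and only a few IDs are printed. A biopsy mixes epithelium, stroma, vessels and immune cells, so fewer cells of a type and less RNA per cell cannot be told apart.

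Gene reads ran from 18959090 to 24291006 per library, and all 153 members were among the 16331 genes with enough reads to be tested. Day 5 replicate 3 and day 18 replicate 2 stood apart, with mean correlations to the other libraries of 0.86 and 0.856 across genes, against 0.916 to 0.939 for the rest. Their TMM scaling factors were also the lowest, 0.748 and 0.836. Day 18 replicate 3 correlated at a mean of 0.947 with the day 5 libraries and 0.888 with those of its own day. It was not alone in being closer to another day. Replicates 1 and 4 had 0.958 and 0.942 with day 14, against 0.91 and 0.909 with day 18. Replicate 2 had 0.869 with day 5 against 0.866. The mean correlation of replicate 3 with all other libraries, 0.927, lay inside the range of the rest. Results on day 18 are also given without day 5 replicate 3 and day 18 replicates 2 and 3, the 3 libraries that stand apart. As day 18 replicate 3 was set apart by its likeness to day 5, leaving it out itself favours a difference of day 18 from day 5.

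The choice narrowed in steps. A day 10 value at least 2 times that of day 5 was found for 772 genes, and 431 of these also had a day 14 value at least 2 times that of day 5. The limit on the day 14 to day 10 ratio left 386, the level minimum 319, and the separation of libraries 153. The members nearest to the 2-fold limit had a smaller ratio, the lower of their day 10 and day 14 ratios to day 5, of 2.004, 2.005 and 2.007. The nearest genes outside, which met the remaining conditions, had 1.981, 1.981 and 1.979, so the group's edge cuts through a continuum.

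Most members rose modestly from a level that was already present on day 5. Over members, the middle value of the day medians was 15.8 CPM for day 5, against 48.6 for day 10, 60.2 for day 14 and 29.6 for day 18. The smaller ratio ran from 2.004 to 131 with a middle value of 2.61. It was under 2.5 for 64 members and at least 4 for 28. Day 5 medians ran from 0.201 to 951 CPM, which covers genes near silence as well as genes among the better read ones. The largest day median was on day 14 for 106 members, on day 10 for 43 and on day 18 for 4. Day 14 exceeded day 10 in 109 members, with a middle ratio of 1.13.

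Together the members took a larger part of the tissue's gene reads on days 10 and 14 than on day 5, which the choice of members fixed. The shares of days 10 and 14 overlapped. Their reads made up 0.687%, 0.896%, 0.511% and 0.801% of all gene reads in day 5 replicates 1 to 4. On day 10 the shares were 2.08%, 1.93%, 2.69% and 2.56%, and on day 14 they were 3.12%, 1.77%, 2.93% and 2.86%. Day 14 replicate 2 was the lowest library of its day, below all day 10 libraries. On day 18 the shares were 2.47%, 0.893%, 0.686% and 2.77%. Replicates 1 and 4 of day 18 thus lay in the range of days 10 and 14, and replicates 2 and 3 in that of day 5, so the mean of 1.71% ± 1.07 (SD, n = 4) described none of the 4 animals. The member with the largest day 14 level took 6.28% to 20.8% of the members' reads, and the 10 best read members of each library 46.5% to 59.8%.

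**Figure D1:**
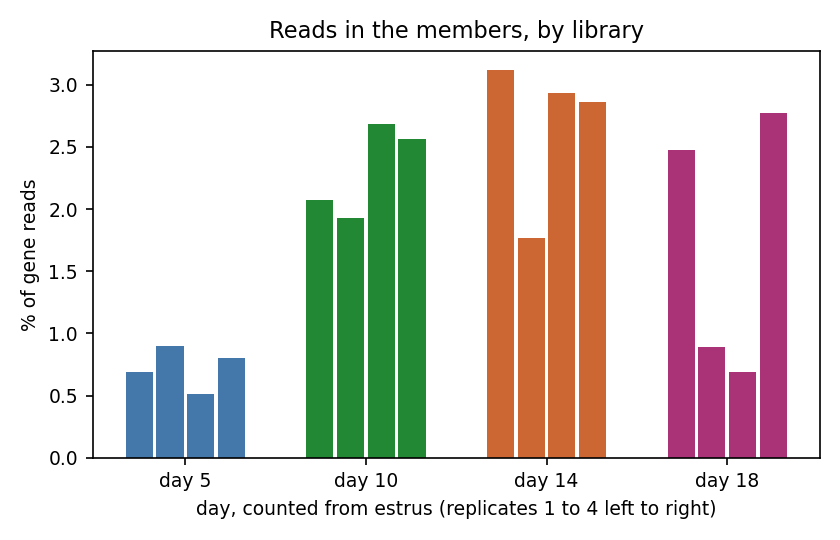
Share of all gene reads that fall in the 153 members, in % (vertical axis, from 0), 1 bar per library, with replicates 1 to 4 from left to right within each day. Day 18 replicates 1 and 4 reach 2.47% and 2.77%, while replicates 2 and 3 stay at 0.893% and 0.686%, inside the day 5 range of 0.511% to 0.896%.

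The same split of day 18 appeared in the median over members. Relative to the day 5 value, on the log2(CPM + 0.5) scale, the members' median difference was 1.48 in day 18 replicate 1, -0.05 in replicate 2, -0.06 in replicate 3 and 1.53 in replicate 4. Over all tested genes the medians were 0.12, -0.21, 0.07 and 0.12. For comparison, the 8 libraries of days 10 and 14 had member medians of 1.15 to 1.78, which the choice of members fixed to be high. Against the day 14 value the medians were -0.12, -1.79, -1.77 and -0.24 for day 18 replicates 1 to 4.

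**Figure D2:**
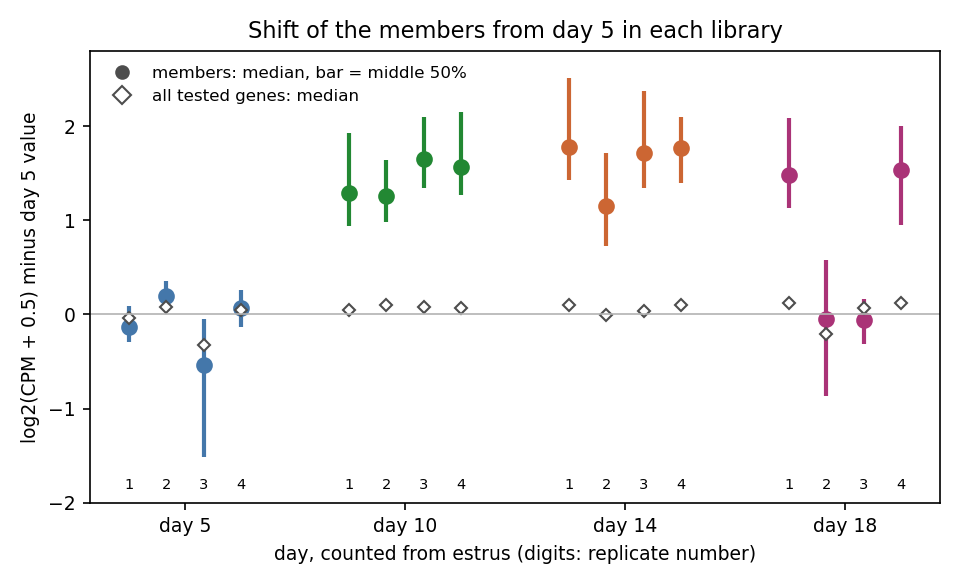
Difference of each library from the day 5 value, in log2(CPM + 0.5) units (vertical axis), by day (horizontal axis, small digits are replicate numbers). Filled points are the medians of the 153 members with bars over the middle 50% of them, and open diamonds are medians of all tested genes. Day 18 replicates 1 and 4 sit at 1.48 and 1.53, and replicates 2 and 3 at -0.05 and -0.06.

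Counted by gene, 145 of the 153 members lay above the highest day 5 library in day 18 replicate 1 and 141 did in replicate 4. The same held for 35.7% and 35.9% of all tested genes. In replicate 2 the number was 50, or 32.7%, against 20.4% of all tested genes. In replicate 3 it was 18, or 11.8%, against 17.8%, a share below that of all tested genes. At or above the lowest of the 8 libraries of days 10 and 14 were 133 members (86.9%) in replicate 1 and 125 (81.7%) in replicate 4, slightly below the 89.9% and 85.6% of all tested genes. In replicate 2 there were 29 of 153 and in replicate 3 there were 6 of 153, against 57.5% and 81% of all tested genes. The rule itself makes such a gap, since in each day 5 library 0 members reached this level. Of all tested genes 49.8% to 85.2% did so there. By number of libraries, 83 members (54.2%) exceeded all day 5 libraries in 2 of the 4 day 18 libraries, against 21.6% of all tested genes, and 54 (35.3%) in 3 of them, against 11.2%. In 151 members the lowest day 18 library was replicate 2 or 3, which was so for 71.3% of all tested genes, and in 146 the highest was replicate 1 or 4, against 54.9%. Days 5, 10 and 14 chose the members, which favours such gaps, so these counts are a description.

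Members also varied widely between day 18 animals. The median SD of a member over the 4 day 18 libraries was 1.15 on the log2(CPM + 0.5) scale, against 0.48 over all tested genes, and 146 of 153 members exceeded the latter. On days 5, 10 and 14 the members' median SDs were 0.53, 0.42 and 0.50, against 0.43, 0.26 and 0.30 for all tested genes. The values of days 5, 10 and 14 were part of the choice, those of day 18 only through the level minimum. With day 18 split between the levels of day 5 and of days 10 and 14, a wide spread is favoured by the choice. The day 18 SDs are thus no separate result from that split.

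Replicates 2 and 3 of day 18 were low in different ways. In replicate 3 members sat close to the day 5 value, with the middle 50% between -0.31 and 0.16. There 4 of the 153 members lay at least 2-fold below it, against 1.49% of all tested genes. In replicate 2 the middle 50% ran from -0.87 to 0.57. Of the 153 members, 37 lay at least 2-fold below the day 5 value there, against 17.6% of all tested genes. Day 5 replicate 3 showed the same feature, with 58 of the 153 at least 2-fold below the value of its own day, against 21.8% of all tested genes. Day 5 values were part of the choice of members, so this count is a description. These lists shared 30 members, which is 51.7% of those low in day 5 replicate 3 and 81.1% of those low in day 18 replicate 2. Over all tested genes the shared part was 39% and 48.2%. Members were low more often than all tested genes in each of these libraries, which by itself raises the shared part. No excess among members is read from it. Day 5 replicate 3 and day 18 replicate 2 also had the lowest scaling factors. On TMM-scaled CPM, against the same day 5 value, the members' median difference moved from -0.53 to -0.12 in day 5 replicate 3. In day 18 replicate 2 it moved from -0.05 to 0.18. Medians over all tested genes moved from -0.33 to 0.04 and from -0.21 to 0.02. Members at least 2-fold below were not counted on that scale, and the part scaling plays in them was not tested.

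**Figure D3:**
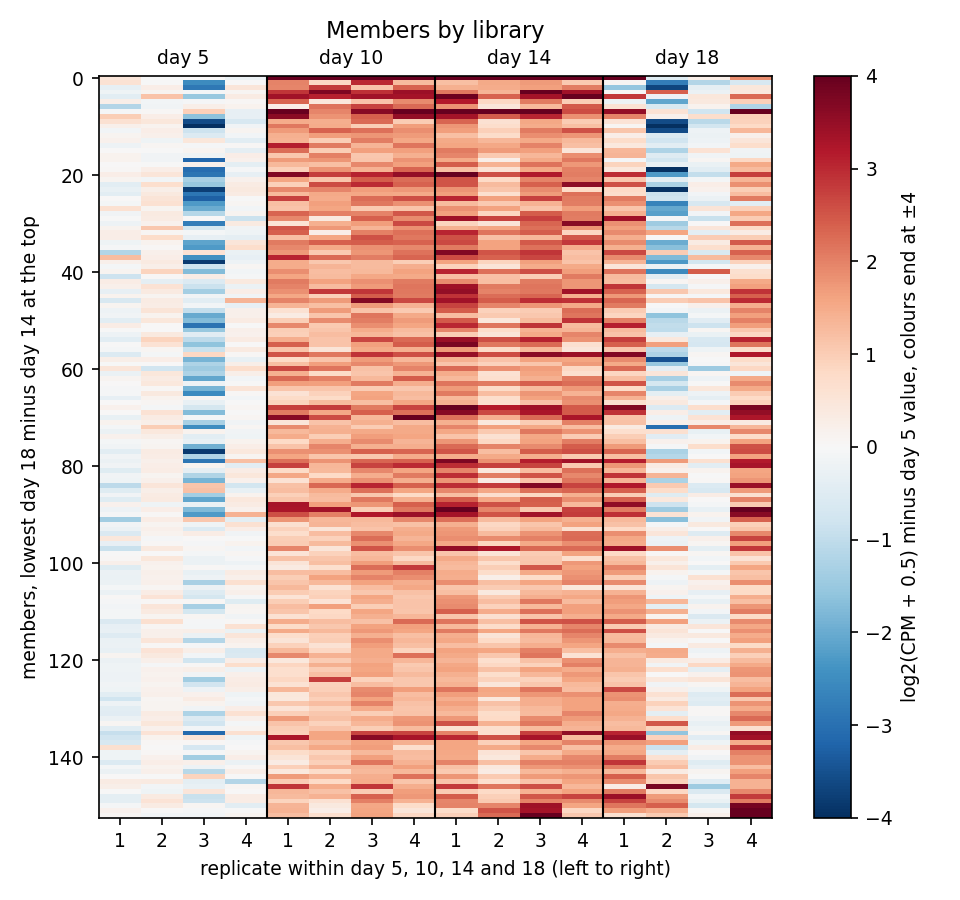
Each row is 1 of the 153 members and each column 1 library, with replicates 1 to 4 of days 5, 10, 14 and 18 from left to right. Colour is the log2(CPM + 0.5) difference from the day 5 value, ending at ±4, and rows are ordered by the fitted difference of day 18 and day 14. Day 18 replicates 1 and 4 are red like days 10 and 14, replicate 3 is pale like day 5, and replicate 2 and day 5 replicate 3 hold strongly blue rows.

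The question of how far the members had come down by day 18 was addressed by edgeR's quasi-likelihood test over all 16331 genes, with day 18 set against each earlier day in 1 fit. Since days 5, 10 and 14 chose the members, a fall from days 10 and 14 and a rise over day 5 are favoured by that choice. The 3 comparisons share the day 18 libraries and are given side by side. Fitted log2 differences of day 18 had a median over members of -0.68 against day 14, -0.46 against day 10 and 1.02 against day 5. Over all tested genes these medians were 0.03, 0.05 and 0.02. Fitted values were below 0 for 144 members against day 14 and for 118 against day 10, and above 0 for 147 against day 5.

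Against day 10, 3 of the 153 members fell, where 0.0735% of all tested genes were called lower and 0.0245% higher, and no member rose. Against day 14, 0 members passed in either direction, as did 0% of all tested genes both lower and higher, with a smallest member adjusted p of 0.079 by edgeR. At an unadjusted p under 0.05 there were 38 members lower against day 14 and 33 lower against day 10, where 3.29% and 4.79% of all tested genes were lower. DESeq2 called 10 members lower than on day 14, with 0.386% of all tested genes lower and 1.4% higher. By limma-voom 0 members were called, as were 0% of all tested genes. Against day 5, edgeR called 0 members, as it called 0% of all tested genes higher, and at an unadjusted p under 0.05 it had 89 members higher, against 8.1% of all tested genes. DESeq2 called 15 members higher than on day 5, with 0.802% of all tested genes higher and 0.3% lower. By limma-voom 0 members were called here too, as were 0% of all tested genes. For the contrasts that chose the members, edgeR called 6 of them higher on day 10 than on day 5, with 0.098% of all tested genes, and 49 higher on day 14 than on day 5, with 1.13%. The choice of members fixed the direction, so nothing is read from these last counts.

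Among edgeR fits with 1 library left out, only the fit without day 18 replicate 3 called members against day 5. It called 40 members higher on day 18 than on day 5, where 2.57% of all tested genes were called higher and 2.66% lower. Without the 3 libraries named above edgeR called 101 of 153, where it called 7.22% of all tested genes higher. Both counts are favoured by leaving out day 18 replicate 3, which was set apart by its likeness to day 5. In the fit without the 3 libraries, with 2 day 18 libraries, the members' median differences were 1.38 against day 5, 0.07 against day 10 and -0.18 against day 14. The sign against day 10 thus turned with the libraries left out.

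**Figure D4:**
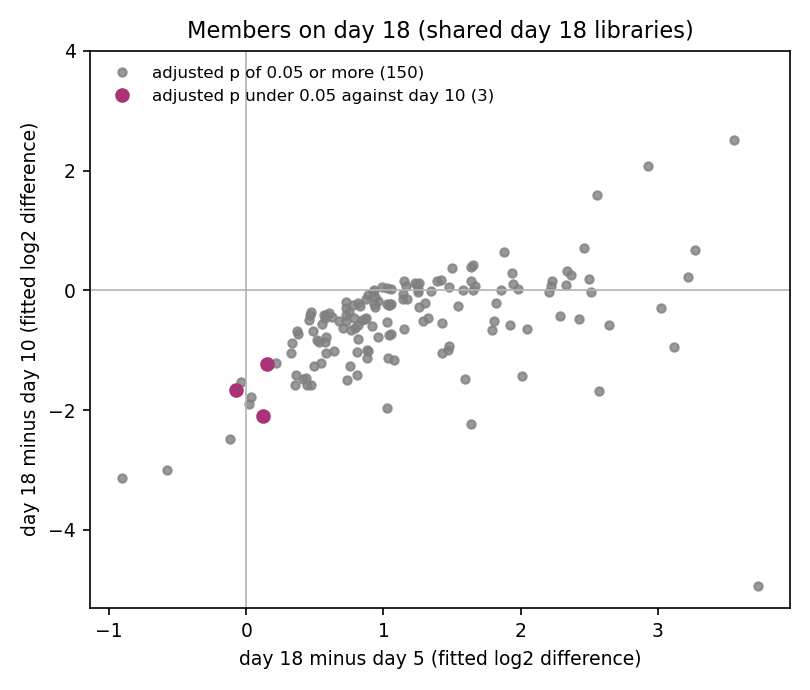
Fitted log2 differences of day 18 against day 5 (horizontal axis) and against day 10 (vertical axis), 1 point per member; both axes share the day 18 libraries. The 3 members called lower than on day 10 are coloured and lie close to 0 against day 5, between -0.08 and 0.15.

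The 3 members that fell from day 10 did so in all 4 day 18 animals. ENSBTAG00000007170 was at 62.4, 67.1, 39.7 and 53.0 CPM in day 5 replicates 1 to 4, at 154, 184, 199 and 191 on day 10, at 132, 95.5, 209 and 197 on day 14, and at 69.3, 39.0, 49.4 and 66.6 on day 18. All 4 day 18 libraries lay below all 8 of days 10 and 14, also in replicates 1 and 4, where most members were high. Replicates 3 and 4 lay inside the day 5 range, replicate 1 slightly above it and replicate 2 slightly below it. The log2 difference of day 18 was -1.66 ± 0.21 (SE) against day 10 (adjusted p = 0.0072 by edgeR), -1.48 ± 0.21 against day 14 (adjusted p = 0.079) and -0.08 ± 0.21 against day 5 (adjusted p = 0.884). The call against day 10 was kept in 23 of 24 alternatives, with adjusted p up to 0.0533 with the replicate number as a block.

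ENSBTAG00000016355 stood at 22.5, 27.0, 24.8 and 26.6 CPM on day 5, at 230, 111, 66.0 and 115 on day 10, at 78.3, 76.5, 102 and 59.8 on day 14, and at 34.8, 19.01, 23.8 and 42.4 on day 18. No day 18 library reached a library of day 10 or 14. Its difference was -2.10 ± 0.33 (SE) against day 10 (adjusted p = 0.0374 by edgeR), a call kept in 13 of 24 alternatives, where the adjusted p ran up to 0.252. ENSBTAG00000013489 stood at 286, 356, 168 and 315 CPM on day 5, at 843, 764, 729 and 830 on day 10, at 569, 426, 840 and 855 on day 14, and at 422, 253, 290 and 338 on day 18. Its highest day 18 library, replicate 1, was just under its lowest day 14 library, replicate 2. Its difference of -1.24 ± 0.21 (SE) against day 10 (adjusted p = 0.0456 by edgeR) was kept in 10 of 24 alternatives, with adjusted p up to 0.164. Without the 3 libraries that stand apart all 3 calls held, with adjusted p of 0.0216, 0.0493 and 0.0425 by edgeR in the order given.

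A wider set showed the same order of libraries without a test. Days 5, 10 and 14 chose the members, which favours the separations given here in both directions, so they are a description. Every day 18 library lay below every day 10 library in 20 members, or 13.1%, against 3.04% of all tested genes. Every day 18 library lay below every day 14 library in 9 members, or 5.88%, against 1.33%. Both held for 8 members, for which the share of all tested genes was not computed. In 2 of these 8 the day 18 median was also below that of day 5. In the other direction, every day 18 library lay above every day 5 library in 4 members, or 2.61%, against 1.15% of all tested genes. One of them, ENSBTAG00000006659, chosen here after its values were seen, was at 1.08, 2.02, 0.262 and 1.87 CPM on day 5 and at 9.54, 3.68, 2.16 and 14.1 on day 18, so that replicate 3 exceeded day 5 only narrowly.

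The steepest rise by the rule belonged to ENSBTAG00000021118, which had 10 or fewer reads in each day 5 library and 20 in all. On day 10 it was at 137, 16.4, 136 and 166 CPM and on day 14 at 124, 100.3, 82.1 and 17.8, which gave ratios of 195 and 131 to day 5 with 0.5 CPM added. By day 18 replicate 1 held 12.9 CPM, replicate 2 held 0, replicate 3 held 0.322 and replicate 4 held 2.06. It had the lowest fitted difference of day 18 and day 14 among members, -4.48 ± 1.17 (SE, adjusted p = 0.270 by edgeR). All 4 day 18 libraries lay below all 8 of days 10 and 14, replicate 1 only slightly below the lowest of them, and replicates 1 and 4 lay above all day 5 libraries.

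The next steepest, ENSBTAG00000011941, followed the common pattern. It was at 0.638, 0.723, 1.78 and 0.442 CPM on day 5, at 19.5, 4.10, 14.3 and 32.3 on day 10, and at 63.3, 37.3, 21.4 and 6.77 on day 14. On day 18 replicates 1 and 4 had 12.9 and 23.2 CPM, and replicates 2 and 3 had 1.26 and 0.184. Its difference of day 18 and day 14 was -1.84 ± 1.02 (SE, adjusted p = 0.516 by edgeR).

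ENSBTAG00000016613 had the second lowest difference of day 18 and day 14, -2.52 ± 0.81 (SE, adjusted p = 0.304 by edgeR). It was at 15.5, 6.62, 31.3 and 9.19 CPM on day 10, at 8.87, 10.95, 12.6 and 7.76 on day 14 and at 3.77, 0.0968, 1.29 and 2.11 on day 18. On day 5 it was at 5.55, 3.52, 0.209 and 3.54, so no day 18 library lay above the highest of day 5. This was so for 1 other member, 2 in all or 1.31%, against 37.4% of all tested genes, a gap that the choice of members favours.

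At the opposite end, the 2 members with the highest differences of day 18 and day 14 had 1 day 18 library, replicate 4, far above the others. ENSBTAG00000030932 was at 6.63, 5.74, 5.75 and 6.68 CPM on day 5, at 15.1, 10.2, 20.1 and 11.4 on day 10 and at 12.5, 31.5, 106 and 13.7 on day 14. On day 18 it was at 9.84, 13.4, 7.17 and 301. ENSBTAG00000039861 was at 73.1, 66.0, 62.7 and 64.0 CPM on day 5, at 171, 78.5, 193 and 91.6 on day 10, at 109, 378, 654 and 116 on day 14 and at 210, 178, 67.5 and 1825 on day 18. Both peaked in the same libraries, replicate 3 on day 14 and replicate 4 on day 18. Their differences of day 18 and day 14 were 0.94 ± 0.99 and 0.79 ± 0.81 (SE, adjusted p = 0.749 and 0.742 by edgeR), and without replicate 4 they were -1.92 and -0.99.

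**Figure D5:**
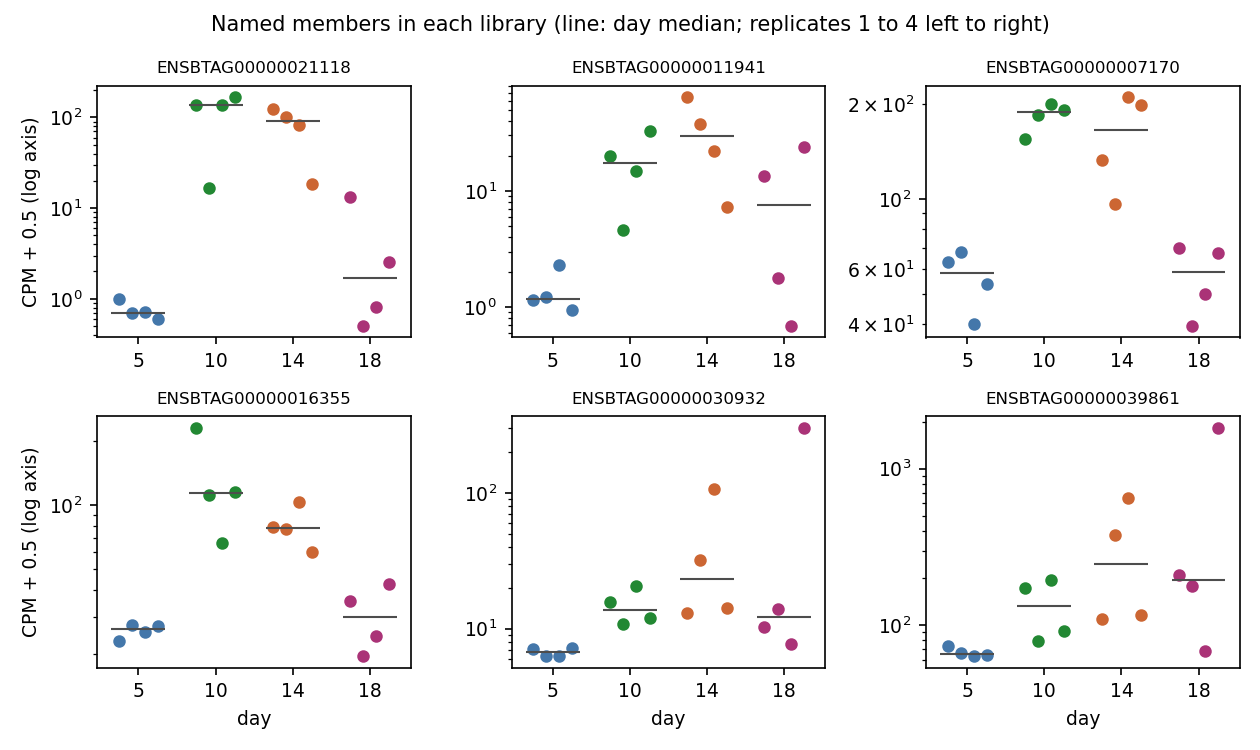
CPM + 0.5 on a log axis in each library for 6 named members, by day, with replicates 1 to 4 from left to right and a line at the day median. The upper right and lower left panels show ENSBTAG00000007170 and ENSBTAG00000016355, low in all 4 day 18 libraries, and the last panels show ENSBTAG00000030932 and ENSBTAG00000039861, whose high day 18 value is replicate 4 alone, at 301 and 1825 CPM.

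Members with large and small earlier rises were set side by side on day 18. The 28 members with a smaller ratio of at least 4 had a median fitted difference of day 18 and day 14 of -0.83, the 19 with 3 to under 4 had -0.98, and the 106 with 2 to under 3 had -0.55. Day 14 chose the members in each of these tiers, so the values are a description.

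Overlap with genes on the other strand touched few members. Reads on the opposite strand came to a median of 0.0993% of those on the counted strand, and reached 10% or more in 3 members. In 1 member the unstranded count was under 90% of the stranded one, as where a gene overlaps another on the opposite strand. Whether reads that fit several near-identical genes were counted is not stated in the labels, so values of members with close copies are uncertain.

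Genes outside the rule followed the same pattern. The correlation of a member's log2(CPM + 0.5) with the members' median over the 16 libraries ran from 0.522 to 0.958 with a middle value of 0.862, as a description, since days 5, 10 and 14 chose the members. Among the 16178 other tested genes the middle value was 0.252, but 131 reached 0.9 or more, against 50 members. The 5 most alike had 0.961 to 0.975 and separated day 5 from days 10 and 14 in every library. They missed the rule by size, with smaller ratios of 1.43 to 1.92. All of these values share the same libraries and their depth.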

How the data were processed

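The deposited files hold raw counts by gene, 1 file per library in the layout of STAR, with an unstranded and 2 stranded columns. The submitters' processing notes name FastQC, STAR and edgeR, with no version; for build and gene models: not given in the sources used here. The 4 summary lines of each file were left out, and reads without a gene feature made up 23.1% to 33.4% of reads on the counted strand. The stranded column 4 was used. Genes were filtered with filterByExpr by day (16331 left), TMM scaling was applied and edgeR's robust quasi-likelihood method was fitted to all 16 libraries, with Benjamini-Hochberg adjustment over all tested genes and a threshold of 0.05. Counts and figures were handled in Python 3.11.15 with pandas 2.3.3, NumPy 2.4.6 and Matplotlib 3.10.9, and models in R 4.3.3 with DESeq2 1.42.0, limma 3.58.1 and edgeR 4.0.16. The fit was tested on simulated data. Alternatives were RLE scaling, no filter beyond 1 read, unstranded counts, DESeq2, limma-voom with library weights, only the days compared, a replicate block, and leaving out libraries. Counts of members above day 5, and medians against the day 5 value, were also computed on TMM-scaled CPM. This alternative was chosen after seeing the data, as was the use of all alternatives for the members' median difference.

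The members and lists were chosen with earlier results of these data known. Named genes were to be those with the largest ratios, the extreme differences of day 18 and day 14, and those called in a day 18 comparison; lists of gene roles and cell markers could not be used, since 0 IDs matched the NCBI RefSeq genes of ARS-UCD2.0. As no ID matched, 2 IDs were named for each end of a comparison and all 3 called ones. One further member was named for a count of 4 after its values were seen. The labels number replicates 1 to 4 within a day, and the numbers did not pair the libraries.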

Additional observations from a re-analysis of the deposited data

Results flagged for a closer look

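The levels of the 8 named members, the members' median level and their share of gene reads were examined in each day for 1 library far from the other 3. Of 40 groups of 4 libraries, 2 had such a library, where chance alone gives about 1 in 20. On day 10, ENSBTAG00000021118 had 4.07 log2(CPM + 0.5) in replicate 2, against 7.09 to 7.38 in the others. On day 18, ENSBTAG00000030932 had 8.24 in replicate 4, against 2.94 to 3.80. The members' median level on day 18 fell into 2 pairs of libraries rather than 1 against 3, and so was not among them.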

How the results depend on the processing

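The number of members stayed within 1.5 times of 153 in all alternatives, at 117 with TMM-scaled CPM, 154 with unstranded counts, 180 with day means, 173 with a level minimum of 1 CPM, 158 with 0.1 CPM added, 170 without the 3 libraries that stand apart, and 127 to 223 with 1 library left out. Of the 117, 109 were among the 153. Members lower on day 18 than on day 10 numbered 13 with DESeq2 (1.63% of all tested genes) and 1 with only these days in the fit (0.0255%). They numbered 0 with the replicate block (0.00612%) and 1 to 5 with 1 library left out, against 3 (0.0735%). The number was 1 without any of day 5 replicates 1, 2 and 4, day 10 replicates 2 and 4, day 14 replicate 1 or day 18 replicates 2 and 4. In those fits 0.0181% to 0.0302% of all tested genes were lower. Without day 18 replicate 1 the number was 5, with 0.103% of all tested genes lower. Lower than on day 14 were 10 with DESeq2 (0.386% of all tested genes) and 0 to 1 with 1 library left out. The 1 came without day 14 replicate 2 (0.00605%). Higher than on day 5 were 15 with DESeq2 (0.802% of all tested genes), 101 without the 3 libraries (7.22%) and 0 to 40 with 1 left out. The 40 came without day 18 replicate 3 (2.57%). With 1 library left out the difference of day 18 and day 14 was -1.92 to 2.03 for ENSBTAG00000030932 and -0.99 to 1.43 for ENSBTAG00000039861, lowest and negative if day 18 replicate 4 was dropped and highest if day 14 replicate 3 was. The direction of the members' median difference against day 10 turned without the 3 libraries (0.07). Members above the highest day 5 library in day 18 replicates 1 to 4 numbered 139, 60, 17 and 138 on TMM-scaled CPM and 145, 53, 20 and 141 without day 5 replicate 3. The cause of these shifts was not tested. Libraries with the same number deviated from their days with correlations of -0.29 to 0.08 between day 18 and earlier days, and 0 of 8 libraries correlated best with their own number, so the replicate block is given here for its counts alone.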
